A study of Mus musculus with 120 samples.

Results

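The comparison described here is between 12 control libraries labelled with the late time point, 4 (T4), and 12 control libraries labelled with the early one, 1 (T1), which make 24 of the 120 libraries of the series. They were chosen by their column labels alone, and none received the compound halofuginone. The question is which transcripts declined after the first wave of the response to bacterial lipopolysaccharide (LPS) and which kept rising. RNA came from bone-marrow-derived macrophages of C57BL/6 mice labelled male and 12 weeks old, grown in culture, transduced with a viral transcription factor reporter and plated in 96-well format. All of these features were shared by the T4, the T1 and the 12 T0 control libraries, which served as the level at time label 0. The series design places the compound 30 minutes before LPS, the time labels have no unit, and LPS itself is in no library's label, so that T1 and T4 are read here as times after LPS from that design. Nothing in the labels says that the replicates were separate cultures or animals, so p-values measure the spread between these libraries only.

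Macrophages sense LPS through Toll-like receptor 4. One arm of the receptor's signalling activates NF-kB and MAP kinases within minutes and switches on genes for cytokines, chemokines and their own inhibitors. Another arm activates IRF3 and leads to secretion of type I interferon, which acts back on the cells through its receptor and STAT transcription factors, so that interferon-stimulated genes follow later. Many transcripts of the first wave carry AU-rich elements in the 3′ untranslated region (UTR), which recruit proteins such as tristetraprolin that speed their decay.

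The T1 libraries held 35545 to 100337 counts and the T4 libraries 54649 to 114061. Counts left after removing Rn45s, a precursor of ribosomal RNA, averaged 32131 ± 9261 at T1 and 46528 ± 10945 at T4 (SD, n = 12 each, permutation test, adjusted p = 0.0098 over 5 library measures). Rn45s took 43.6% ± 4.51 of counts at T1 and 38% ± 4.76 at T4 (SD, n = 12 each, permutation test, adjusted p = 0.0145). Total counts averaged 58011 ± 19391 at T1 and 75617 ± 19587 at T4 and did not pass (SD, n = 12 each, permutation test, adjusted p = 0.0623). Depth without Rn45s and the Rn45s share therefore differed between T1 and T4. A fit without structural RNAs, Rn45s among them, gave 230 genes higher and 238 lower at T4, against 219 and 221 with them. Beyond that fit, the part of depth and of the Rn45s share in the results was not tested. Of 13 macrophage markers, 10 had a count in at least 33 of the 36 libraries, among them Csf1r, Emr1, Cd68 and Itgam, while the counts of Lyz2 summed to 5, 5 and 1 over the T0, T1 and T4 libraries and those of Mertk to 2, 0 and 7. Xist, the RNA of the inactive X chromosome, was counted in 36 of 36 libraries at 171 to 975 CPM, and none of the 4 Y-linked genes Ddx3y, Eif2s3y, Kdm5d and Uty had a count, which goes against the label male in every library alike. Levels are in CPM, counts scaled to library totals with TMM factors.

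Of 708 genes with enough counts to be tested, 219 were higher at T4 than at T1 (30.9% of those tested) and 221 were lower (31.2%) at an adjusted p under 0.05, so that 62.1% of the genes tested passed. Among these tested genes the rises were the larger changes. Genes with too few counts for the fit are not in these numbers, and some changed strongly in either direction. The mean level of Egr1 went from 200 CPM at T1 to 5.46 CPM at T4, and that of Cxcl9 from 1.46 to 252 CPM. A log2 fold change of 2 or more was found for 76 genes that rose and 19 that fell, one of 3 or more for 40 that rose and 4 that fell, and one of 4 or more for 24 that rose and 0 that fell. For 105 genes (14.8%) every T4 library lay above every T1 library, and for 32 (4.52%) every T4 library lay below. The median log2 fold change over all tested genes was -0.13, the value against which gene groups are read below. Scaling by median of ratios moved that median up by 0.13 and gave 245 higher and 173 lower genes, or 58.6% of calls higher against 49.8%, so that calls with small fold changes depend on the scaling. A gene low at 2 of the 3 times could pass the count filter through the third, so counts of called members lean towards that time.

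**Figure D1:**
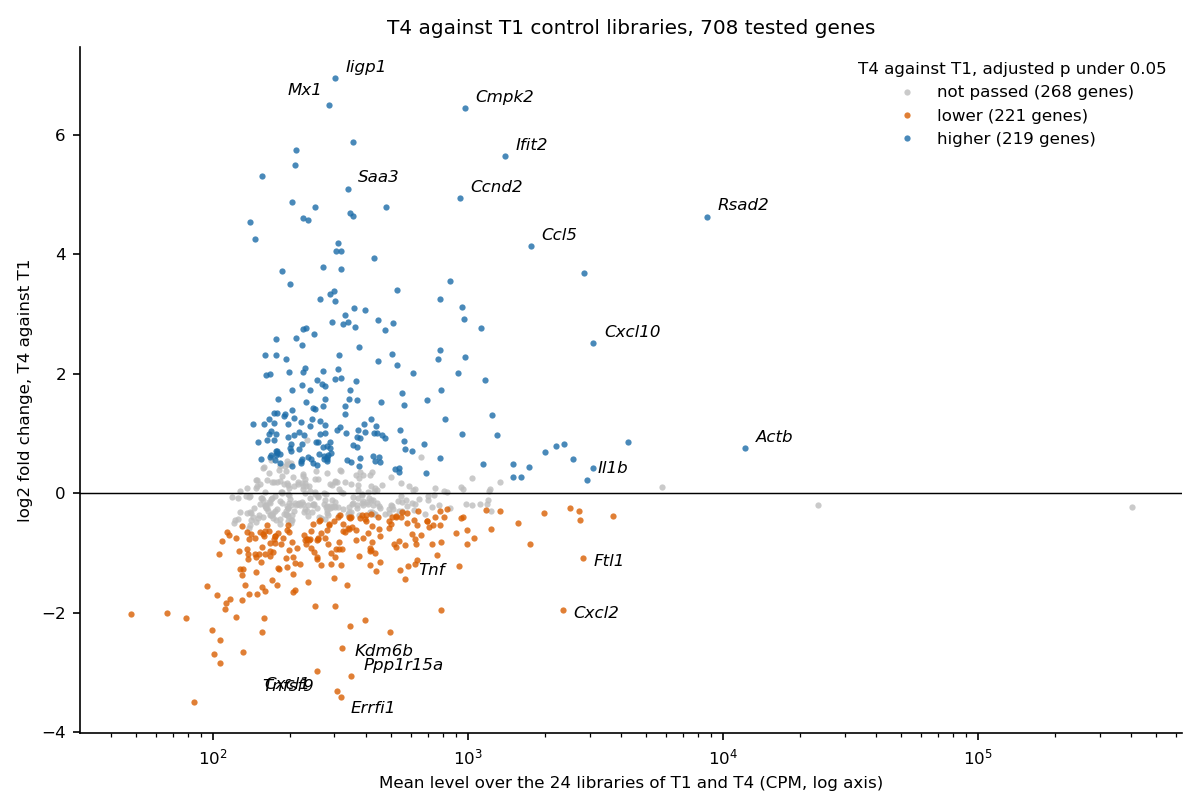
Mean level over the 24 libraries of T1 and T4 (horizontal, log axis) against the log2 fold change of T4 against T1 (vertical) for 708 tested genes, coloured by call. The 40 rises of 3 or more reach a fitted 6.95 for Iigp1, while the falls among these tested genes end at -3.49 for Irf2bp2. Genes with too few counts for the fit, such as Egr1, are not drawn.

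The genes of the first wave were followed by taking the 129 that were higher at T1 than at T0 (18.2% of those tested). At T4, 32 of the 129 were lower than at T1, 73 were higher still, and 24 did not pass the test in either direction. Among the 32 that declined, 21 were still above T0 at T4 and 11 did not differ from T0 by the test. Of the 523 genes that did not pass between T0 and T1, 138 were higher and 168 lower at T4 than at T1. Another 56 genes were lower at T1 than at T0 (7.91%), of which 21 were lower again at T4, 8 were higher and 27 did not pass. Both comparisons use the same 12 T1 libraries, so a chance deviation at T1 moves them in opposite directions, and these counts are given as a description. Summed over the 129 genes, the mean level was 16328 CPM at T0, 69658 CPM at T1 and 123031 CPM at T4.

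**Figure D2:**
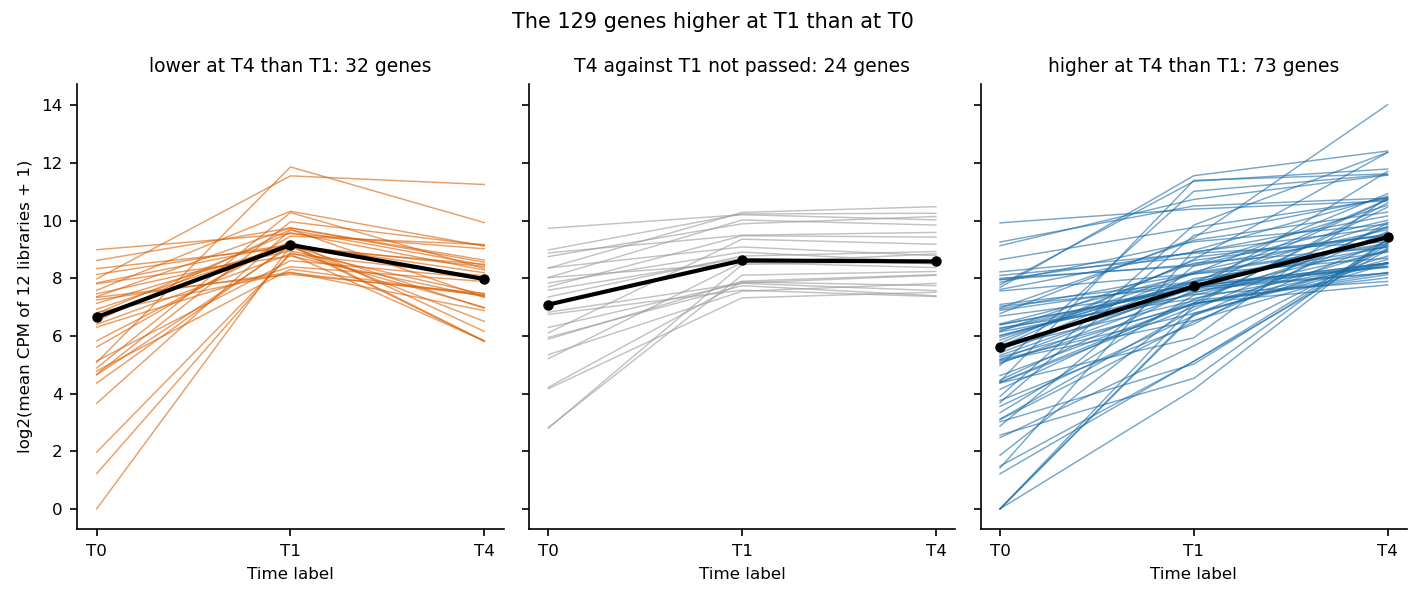
Mean level of each of the 129 genes higher at T1 than at T0, as log2(mean CPM of 12 libraries + 1), at T0, T1 and T4, in panels by the call of T4 against T1. Thin lines are genes and the thick line is the median over the genes of a panel, which falls in the panel of 32 genes and climbs in that of 73.

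Of 26 listed cytokines 6 could be tested, of which Il1rn, Il1a and Il1b rose (50% against 30.9% of all tested genes), Tnf and Tnfsf9 fell (33.3% against 31.2%) and Spp1 did not pass, with a median log2 fold change of 0.03. Tnf, which encodes the inflammatory cytokine TNF, ran from 633 to 1009.9 CPM with a median of 843 in the 12 T1 libraries and from 230.0 to 491 CPM with a median of 339 in the 12 T4 libraries, after a T0 median of 0 CPM. No T4 library reached the lowest T1 library, and the fall was 2.33-fold (log2 change -1.22 ± 0.15 SE, adjusted p = 5.93e-10). Tnfsf9, which encodes the ligand of the costimulatory receptor 4-1BB, ran from 207 to 968 CPM with a median of 563 in the 12 T1 libraries and from 21.7 to 92.9 CPM with a median of 57.2 in the 12 T4 libraries. The groups were again apart, with a 9.85-fold fall (log2 change -3.30 ± 0.23 SE, adjusted p = 8.08e-17).

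Interleukin-1 genes did not follow Tnf. Il1a ran from 0 to 303 CPM with a median of 186 in the 12 T1 libraries and from 309 to 750.0 CPM with a median of 494 in the 12 T4 libraries, a 2.75-fold rise with no overlap (log2 change 1.46 ± 0.21 SE, adjusted p = 3.83e-08). Il1rn, whose product blocks the IL-1 receptor, ran from 25.9 to 210.4 CPM with a median of 103 in the 12 T1 libraries and from 581 to 1013 CPM with a median of 775 in the 12 T4 libraries. That was a 7.47-fold rise, again with no overlap (log2 change 2.90 ± 0.20 SE, adjusted p = 9.40e-19). Il1b was at 2162 to 3199 CPM (median 2782) at T1 and 2608 to 3822 CPM (median 3119) at T4. Its groups overlapped and its rise was small (log2 change 0.23 ± 0.10 SE, adjusted p = 0.0442). That call was lost with T1 replicate 3, 5, 6, 7, 10 or 12 or T4 replicate 10 left out, at adjusted p from 0.0532 to 0.0833, and with the 24 libraries fitted alone. Spp1, which encodes osteopontin, was at 927 to 1460.4 CPM (median 1177) at T1 and 773 to 1488 CPM (median 1001) at T4 and did not pass (log2 change -0.18 ± 0.11 SE, adjusted p = 0.153).

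Several cytokines had too few counts for the fit and were compared by a permutation test of their CPM, with p adjusted over the 13 genes so tested. Il6 had 0, 16 and 287 counts in the T0, T1 and T4 groups, with 0 to 84.2 CPM at T1 and 77.7 to 489 CPM at T4 (adjusted p = 5.20e-05, n = 12 each, permutation test). Il12b, which encodes the p40 subunit of IL-12, had 1, 48 and 206 counts, and every T4 library was above every T1 library (adjusted p = 5.20e-05, n = 12 each, permutation test). Ifnb1, the gene for interferon beta, went the other way. It had 0, 21 and 2 counts at the 3 times, with a count in 9 of 12 T1 libraries and in 2 of 12 T4 libraries. Its level at T1 was 14.1 times that at T4 (counting interval 3.45 to 124 at 95%, adjusted p = 0.00208, n = 12 each, permutation test). Il10, the anti-inflammatory cytokine, had 1, 21 and 33 counts and its groups overlapped (adjusted p = 0.797, n = 12 each, permutation test). Unadjusted, the smallest p that 100000 resamples can give is 2e-05, and Il6 and Il12b were at it.

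Chemokine genes moved in both directions. Of 11 tested, 6 rose (54.5% against 30.9% of all tested genes), 3 fell (27.3% against 31.2%) and 2 did not pass. The median log2 fold change was 0.58. The 3 that fell were Cxcl1, Cxcl2 and Cxcl3, all ligands of the neutrophil receptor CXCR2. Cxcl2 ran from 2826 to 4819 CPM with a median of 3822 in the 12 T1 libraries and from 680.1 to 1551 CPM with a median of 879.8 in the 12 T4 libraries. It fell 3.85-fold with no overlap (log2 change -1.94 ± 0.13 SE, adjusted p = 1.39e-19). Cxcl1 was at 309.9 to 589 CPM (median 445) at T1 and 0 to 119 CPM (median 60.0) at T4, a fall of 7.80-fold without overlap (log2 change -2.96 ± 0.23 SE, adjusted p = 8.72e-17). Cxcl3 was at 346 to 701 CPM (median 449) at T1 and 68.2 to 211 CPM (median 118) at T4, and its groups did not overlap either (log2 change -1.88 ± 0.18 SE, adjusted p = 5.77e-14).

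Cxcl10, a ligand of CXCR3, a chemokine receptor of T cells, ran from 751 to 1049 CPM with a median of 907 in the 12 T1 libraries and from 4312 to 6491 CPM with a median of 5377 in the 12 T4 libraries. This was a 5.74-fold rise (log2 change 2.52 ± 0.11 SE, adjusted p = 3.66e-28), although the gene had already risen at T1 from a T0 median of 0 CPM. All 4 of these genes are on chromosome 5 of GRCm38, with Cxcl3 at chr5:90786101-90788093, Cxcl1 at chr5:90891245-90893121, Cxcl2 at chr5:90903899-90905938 and Cxcl10 at chr5:92346638-92348889. Cxcl9, another ligand of CXCR3, had 1, 1 and 243 counts in the T0, T1 and T4 groups and a T4 level 181 times that of T1 (counting interval 32.1 to 7163 at 95%).

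The CC chemokines, on chromosome 11, rose or did not pass. Ccl5, an attractant of T cells and monocytes, ran from 129.6 to 337 CPM with a median of 167 in the 12 T1 libraries and from 2666 to 4159 CPM with a median of 3322 in the 12 T4 libraries, which was a 17.7-fold rise (log2 change 4.14 ± 0.14 SE, adjusted p = 6.98e-33). Ccl7, a monocyte attractant, was at 35 to 234 CPM (median 92.6) at T1 and 334 to 602 CPM (median 409) at T4 and rose 4.13-fold (log2 change 2.05 ± 0.21 SE, adjusted p = 1.65e-11). Ccl2, the main ligand of CCR2 and the neighbour of Ccl7, was at 153 to 392 CPM (median 299) at T1 and 117 to 464 CPM (median 312) at T4 and did not pass (log2 change 0.15 ± 0.19 SE, adjusted p = 0.494). Ccl3 and Ccl4, macrophage inflammatory protein genes, were already high at T1. Ccl3 rose from a median of 713 to 1724 CPM (log2 change 1.31 ± 0.12 SE, adjusted p = 6.37e-14), and Ccl4 from 2002 to 3036 CPM (log2 change 0.58 ± 0.09 SE, adjusted p = 2.45e-07), in each case with every T4 library above every T1 library. Their annotated gene models overlap, so reads in the shared stretch could be assigned to either. Ccl9 rose from 1829 to 3079.8 CPM (log2 change 0.83 ± 0.10 SE, adjusted p = 1.46e-10). Cxcl16, a membrane-bound chemokine, was at 145 to 579 CPM (median 362) at T1 and 267 to 622 CPM (median 427) at T4 and did not pass (log2 change 0.32 ± 0.16 SE, adjusted p = 0.0880), though it did under median-of-ratios scaling, with a log2 fold change of 0.45.

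All 12 tested genes of NF-kB subunits and feedback inhibitors were higher at T1 than at T0 (18.2% of all tested genes were). At T4 6 were higher again (50% against 30.9% of all tested genes), 3 were lower (25% against 31.2%) and 3 did not pass. The median log2 fold change was 0.31. Nfkbiz, which encodes the nuclear regulator IkB zeta, ran from 872 to 1555 CPM with a median of 1261 in the 12 T1 libraries and from 219.9 to 478 CPM with a median of 297 in the 12 T4 libraries. It fell 3.84-fold with no overlap (log2 change -1.94 ± 0.14 SE, adjusted p = 2.13e-18). Tnfaip3, the gene of the ubiquitin-editing enzyme A20, was at 692 to 1298 CPM (median 1021) at T1 and 375 to 884 CPM (median 521) at T4, with overlap (log2 change -0.81 ± 0.15 SE, adjusted p = 4.17e-06). Nfkbia, which encodes the inhibitor IkB alpha, was at 2400.3 to 3809 CPM (median 3031) at T1 and 1980.2 to 2824 CPM (median 2474) at T4. Its small fall passed here (log2 change -0.30 ± 0.09 SE, adjusted p = 0.00343) and not under median-of-ratios scaling, where the log2 fold change was -0.17.

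Other members of the list kept rising. Peli1, which encodes an E3 ligase of Toll-like receptor signalling, was at 152 to 474 CPM (median 306) at T1 and 614 to 1232 CPM (median 807) at T4 and rose 2.80-fold (log2 change 1.48 ± 0.17 SE, adjusted p = 4.24e-11). Nfkb1, the gene of the p105 and p50 subunit, rose from a median of 135 to 344 CPM (log2 change 1.21 ± 0.20 SE, adjusted p = 6.97e-07), and Traf1, a TNF receptor adaptor gene, from 135 to 279.7 CPM (log2 change 1.04 ± 0.25 SE, adjusted p = 0.000291). Tnip1, Tnip3 and Tnfaip2 rose by 0.54, 0.53 and 0.43 on the log2 scale. Socs3, the gene of an inhibitor of cytokine receptor signalling, was at 208 to 537 CPM (median 346) at T1 and 279 to 505 CPM (median 400.0) at T4 (log2 change 0.14 ± 0.17 SE, adjusted p = 0.463). Nfkbie and Birc3 also did not pass.

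**Figure D3:**
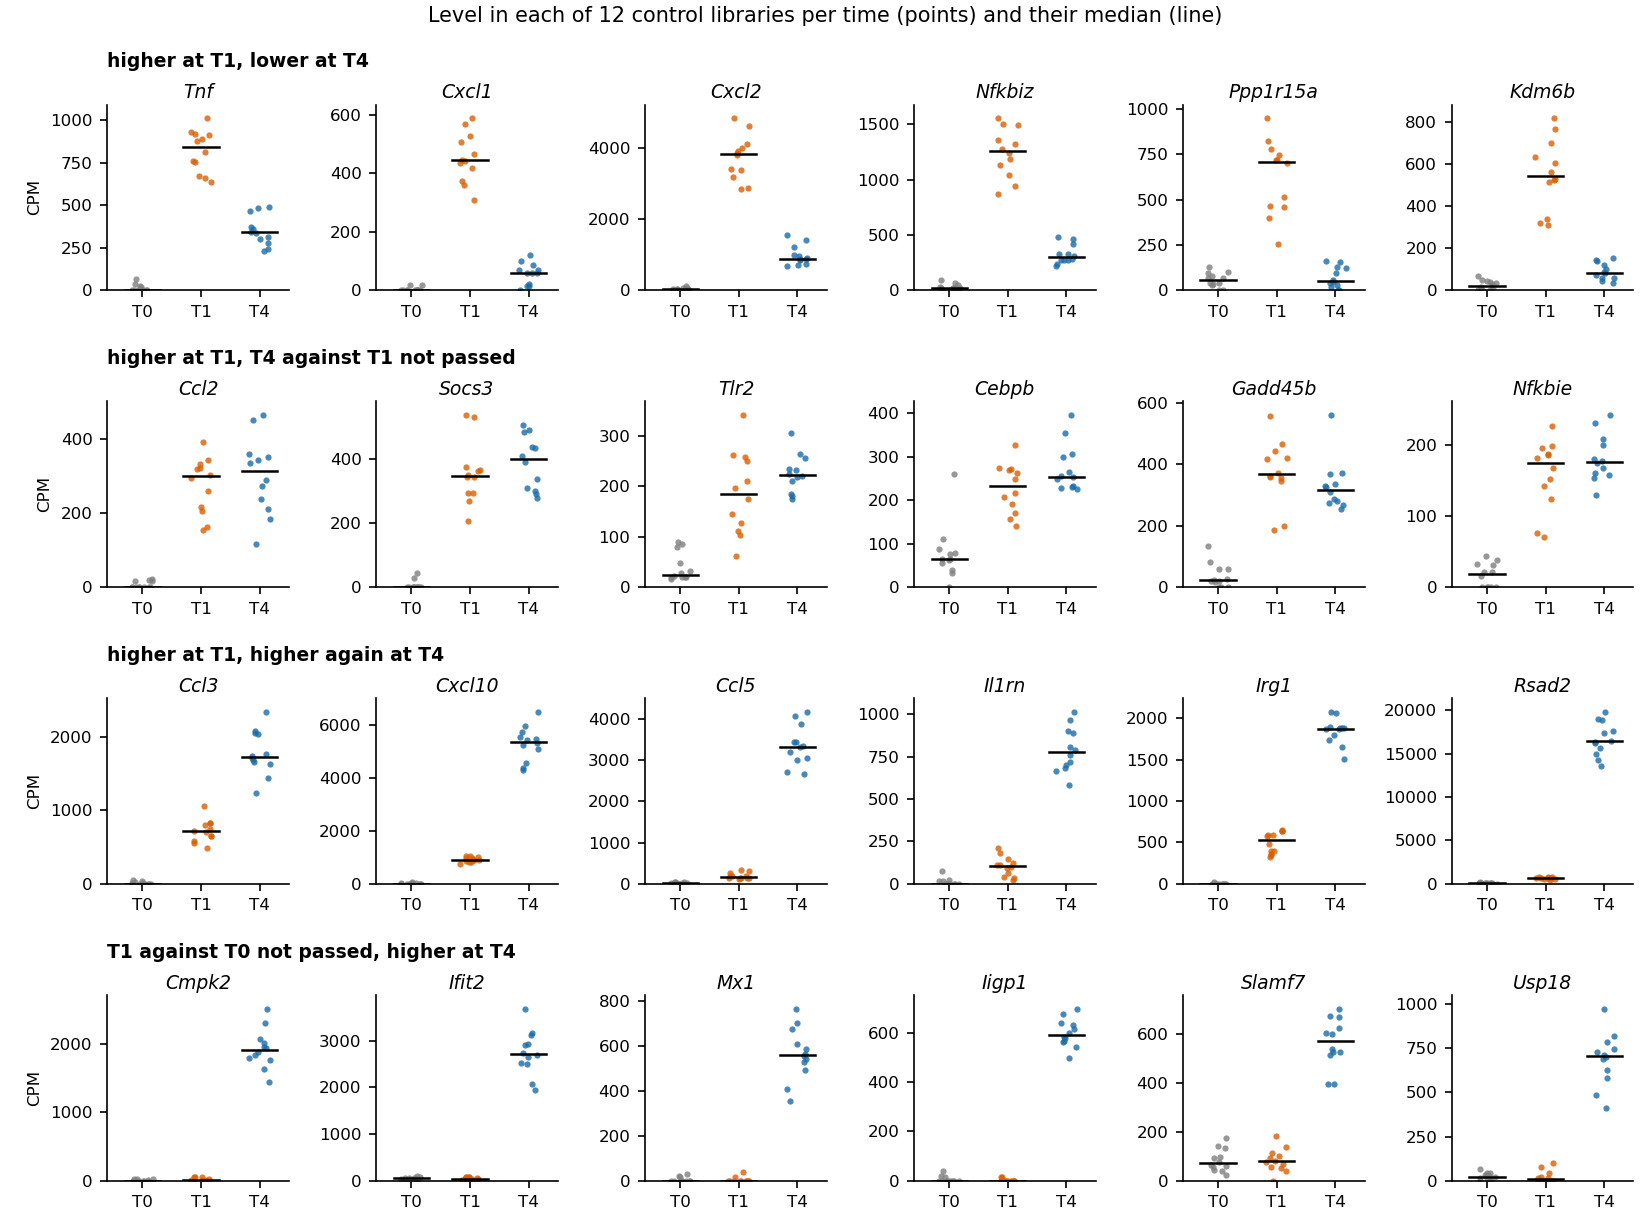
CPM of 24 genes in each of the 12 control libraries at T0, T1 and T4 (points), with the median as a line, in rows by course. In the top row the T4 points of all 6 genes lie below their T1 points, in the second row T1 and T4 points overlap, and in the lower pair of rows the T4 points lie above.

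Of 4 immediate early factors tested in the fit 1 fell (25% against 31.2% of all tested genes) and 3 did not pass. Another 3 with few counts fell by the permutation test. Junb, a subunit of AP-1, ran from 1114 to 1612 CPM with a median of 1252 in the 12 T1 libraries and from 440.0 to 826 CPM with a median of 528 in the 12 T4 libraries, a fall of 2.31-fold with no overlap (log2 change -1.21 ± 0.13 SE, adjusted p = 1.67e-12). Klf6, Gadd45b and Cebpb were the 3 that did not pass. Egr1, a zinc finger factor of that class, had 7, 141 and 5 counts in the T0, T1 and T4 groups, with 105 to 360 CPM at T1 and 0 to 34.1 CPM at T4 (adjusted p = 5.20e-05, n = 12 each, permutation test). Jun had 90, 155 and 38 counts (adjusted p = 8.67e-05, n = 12 each, permutation test) and Fos 48, 51 and 26 counts (adjusted p = 0.0300, n = 12 each, permutation test). The mean level of Fos was 75.3 CPM at T0 and 75.3 CPM at T1. Ier3 with 7, 42 and 62 counts, Atf3 with 66, 118 and 106 counts and Irf1 with 15, 81 and 147 counts did not pass the same test, at adjusted p of 0.949, 0.0935 and 0.173 (permutation test, n = 12 each).

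Of 5 tested phosphatase and mRNA decay genes, 4 fell (80% against 31.2% of all tested genes) and 1 rose (20% against 30.9%). The median log2 fold change was -0.91. Zfp36, which encodes tristetraprolin, was at 207 to 589 CPM (median 493) at T1 and 158 to 385 CPM (median 249) at T4 and fell 1.71-fold with overlap (log2 change -0.78 ± 0.17 SE, adjusted p = 0.000104). Dusp1, the gene of a phosphatase that switches off p38 and JNK, was at 104 to 458 CPM (median 315) at T1 and 77.7 to 355 CPM (median 161) at T4 (log2 change -0.91 ± 0.23 SE, adjusted p = 0.000627). Btg1, an antiproliferative gene linked to deadenylation, fell from 578 to 229 CPM with no overlap (log2 change -1.20 ± 0.16 SE, adjusted p = 2.27e-09). Dusp3 had not changed between T0 and T1 by the test and then fell from 248 to 50.5 CPM (log2 change -2.32 ± 0.23 SE, adjusted p = 6.32e-13). Dusp2, the phosphatase gene of activated leukocytes, rose instead, from 128 to 214 CPM (log2 change 0.67 ± 0.22 SE, adjusted p = 0.00652).

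The 12 largest falls among genes at or above the median level included genes outside these lists. Errfi1, which encodes an inhibitor of EGF receptor signalling, ran from 344 to 891 CPM with a median of 534 in the 12 T1 libraries and from 11.6 to 136 CPM with a median of 47.5 in the 12 T4 libraries, a 10.5-fold fall (log2 change -3.40 ± 0.27 SE, adjusted p = 7.38e-17). Ppp1r15a, also called Gadd34, directs a phosphatase to the translation factor eIF2 alpha, and its transcript ran from 257 to 949 CPM with a median of 709.8 in the 12 T1 libraries and from 0 to 160.0 CPM with a median of 48.2 in the 12 T4 libraries. The fall was 8.29-fold (log2 change -3.05 ± 0.27 SE, adjusted p = 9.80e-15), and T4 did not pass against T0, where the median was 53.2 CPM. Kdm6b, the gene of a histone H3K27 demethylase, was at 310.1 to 816 CPM (median 543) at T1 and 32.6 to 151 CPM (median 83.1) at T4, with a 6.02-fold fall and no overlap (log2 change -2.59 ± 0.23 SE, adjusted p = 5.76e-15). Rasgef1b, a guanine nucleotide exchange factor gene induced through Toll-like receptors, fell from 812 to 177 CPM (log2 change -2.32 ± 0.18 SE, adjusted p = 1.67e-17).

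Bcl2l11 and Mdm2 were also among these 12 falls. Bcl2l11, which encodes the pro-apoptotic protein BIM, fell from 547 to 114 CPM with no overlap (log2 change -2.21 ± 0.20 SE, adjusted p = 1.34e-14). Mdm2, the gene of the ligase that degrades p53, was at 186 to 941 CPM (median 483) at T1 and 58.7 to 324 CPM (median 162) at T4 (log2 change -1.54 ± 0.23 SE, adjusted p = 3.52e-08). Mcl1 and Nlrp3 were chosen after their values were seen. Mcl1, the gene of an anti-apoptotic relative of BIM, fell from 815 to 356 CPM with overlap (log2 change -1.18 ± 0.15 SE, adjusted p = 1.62e-09), and the inflammasome sensor gene Nlrp3 from 385 to 248 CPM (log2 change -0.63 ± 0.19 SE, adjusted p = 0.00415). Bcl2l11, Mdm2 and Mcl1 had risen at T1 and did not pass against T0 at T4.

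AU-rich sequence lies in the 3′ UTR of several transcripts that peaked at T1. The windows below are the 30 bases of each GENCODE M21 3′ UTR that hold the most copies of the pentamer ATTTA. These genes are examples with more than 1 copy in the window. Not every falling gene was like them, since the best windows of Errfi1, Tnfsf9 and Junb held 1 copy each. Capitals mark the pentamer, written as DNA 5′ to 3′ on the sense strand. The first 5 genes fell from T1 to T4. Ptgs2 rose, and so did Il1b, whose call was lost with some single libraries left out.
Tnf 3′ UTR site: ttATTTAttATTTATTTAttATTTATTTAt
Cxcl1 3′ UTR site: gtcctATTTATTTAtgtATTTATTTAttcc
Cxcl2 3′ UTR site: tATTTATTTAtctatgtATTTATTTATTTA
Ppp1r15a 3′ UTR site: tcctattATTTATTTATTTATTTAtttgaa
Zfp36 3′ UTR site: cctttATTTAtgacgactttATTTAttgta
Il1b 3′ UTR site: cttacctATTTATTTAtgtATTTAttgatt
Ptgs2 3′ UTR site: atATTTATTTATTTAtgtgaagaATTTAat

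A longer form of the element, the heptamer TATTTAT on the sense strand, was in the 3′ UTR of 27.5% of 21082 protein-coding genes and of 26.6% of the 689 tested genes with an annotated 3′ UTR. Among the 32 genes higher at T1 and lower at T4, 20 had it (62.5%) and 16 had it more than once (50.0%). It was in 13 of the 24 first-wave genes that did not pass between T1 and T4 (54.2%) and in 25 of the 73 that rose again (34.2%). Among genes that did not pass between T0 and T1 it was in 43 of 137 that rose at T4 (31.4%) and in 38 of 166 that fell (22.9%). Median 3′ UTR lengths of these 5 sets ran from 980.5 to 1484.5 bases, and the heptamer's density was 1.13 per 1000 bases in the declining genes, 0.837 in those that did not pass, 0.435 in those that rose again and 0.256 and 0.25 in the last pair of sets. Ccl5 and Il1rn, 2 genes that rose at both times, had no ATTTA in their 3′ UTR, while Ptgs2, which also rose at both times, had 14. Nfkbiz and Junb, which were higher at T1 and declined at T4, had 0 copies of the heptamer. These shares describe annotated sequence and were computed after the data had been seen.

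The genes that rose after T1 were led by interferon-stimulated genes. Of 48 genes in the antiviral list 27 had enough counts to be tested, and a gene low at T1 could pass that filter through T4. All 27 rose (30.9% of all tested genes did), with a median log2 fold change of 3.07. Only 6 of the 27 had passed as higher at T1 than at T0. The summed level of the 46 listed genes found in the data was 3872 to 5379 CPM in the T1 libraries and 40842 to 48404 CPM in the T4 libraries. For 22 of the 27 every T4 library was above every T1 library, as for 14.8% of all tested genes.

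Rsad2, which encodes the antiviral enzyme viperin, ran from 490.1 to 769 CPM with a median of 708 in the 12 T1 libraries and from 13511 to 19767 CPM with a median of 16419 in the 12 T4 libraries. That rise of 24.8-fold (log2 change 4.634 ± 0.11 SE, adjusted p = 4.89e-40) came on top of an earlier one from a T0 median of 107 CPM. Its neighbour on chromosome 12, Cmpk2, a mitochondrial nucleotide kinase gene, ran from 0 to 62 CPM with a median of 14.7 in the 12 T1 libraries and from 1449 to 2510.1 CPM with a median of 1912 in the 12 T4 libraries. Cmpk2 had not passed between T0 and T1, and its T4 libraries were all far above T1 (log2 change 6.44 ± 0.22 SE, adjusted p = 7.88e-33). Ifit1, Ifit2 and Ifit3, on chromosome 19, encode proteins that bind viral RNA. Ifit1 was at 245 to 609 CPM (median 379.9) at T1 and 4389 to 6202 CPM (median 5329.7) at T4 (log2 change 3.70 ± 0.13 SE, adjusted p = 2.04e-32). Ifit2 was at 0 to 87.3 CPM (median 44) at T1 and 1938 to 3681 CPM (median 2722) at T4 (log2 change 5.65 ± 0.18 SE, adjusted p = 6.31e-34). Ifit3 was at 0 to 63.1 CPM (median 29.2) at T1 and 674 to 1121 CPM (median 932) at T4 (log2 change 4.79 ± 0.23 SE, adjusted p = 3.18e-26). Ifit1 alone of the 3 had passed at T1, with a log2 fold change of 3.03 against T0.

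Mx1, the gene of an antiviral dynamin-like GTPase, had 3 counts in all T1 libraries together and 542 at T4, a ratio of 134 (counting interval 45.7 to 653 at 95%). Isg15, which encodes a ubiquitin-like modifier, was at 63.1 to 265 CPM (median 109) at T1 and 1140.1 to 1695 CPM (median 1411) at T4 and rose 9.51-fold (log2 change 3.25 ± 0.17 SE, adjusted p = 2.04e-24). Usp18, the gene of the protease that removes it, ran from 0 to 103 CPM with a median of 7.75 in the 12 T1 libraries and from 409 to 972 CPM with a median of 707 in the 12 T4 libraries (log2 change 4.65 ± 0.29 SE, adjusted p = 1.19e-20). Isg20, an exonuclease gene, was at 0 to 36.2 CPM (median 0) at T1 and 197 to 422 CPM (median 271) at T4 (log2 change 4.254 ± 0.34 SE, adjusted p = 1.40e-16). The oligoadenylate synthetase relatives Oasl1 and Oasl2 rose by 2.86 and 3.23 on the log2 scale, and the kinase gene Eif2ak2, or PKR, by 2.99 on that scale. The smallest rises in the list were those of Ifitm3, Slfn2 and Ifi27l2a, with log2 fold changes of 0.98, 0.59 and 0.45. The Oas, Oasl, Slfn, Trim30 and Ifi20x families hold close paralogs, so the split of reads within each is uncertain.

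Short interferon response cores lie in the promoters of several of these genes. The 300 bases from 250 before to 50 after the annotated start are printed for Rsad2, Isg15 and Cxcl10, which rose, and for Cxcl2, which fell, as RefSeq gives them for GRCm38.p6, 5′ to 3′ on the gene's strand. They lie at chr12:26456403-26456702 (minus strand), chr4:156200769-156201068 (minus strand), chr5:92348840-92349139 (minus strand) and chr5:90903649-90903948 (plus strand). Capitals mark the interferon response core GAAANNGAA or the kB site GGANTTTCC, each on either strand.
Rsad2 promoter: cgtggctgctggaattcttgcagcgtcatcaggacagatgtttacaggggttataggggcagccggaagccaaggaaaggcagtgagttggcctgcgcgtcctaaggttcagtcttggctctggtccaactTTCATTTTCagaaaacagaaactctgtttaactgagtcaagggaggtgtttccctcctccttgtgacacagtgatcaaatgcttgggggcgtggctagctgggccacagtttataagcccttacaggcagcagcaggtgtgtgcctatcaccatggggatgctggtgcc
Isg15 promoter: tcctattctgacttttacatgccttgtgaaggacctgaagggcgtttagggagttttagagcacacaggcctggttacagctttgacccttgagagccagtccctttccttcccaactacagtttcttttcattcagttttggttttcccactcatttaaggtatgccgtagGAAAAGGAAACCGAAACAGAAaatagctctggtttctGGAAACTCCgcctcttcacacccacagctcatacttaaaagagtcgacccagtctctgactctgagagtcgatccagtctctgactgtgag
Cxcl10 promoter: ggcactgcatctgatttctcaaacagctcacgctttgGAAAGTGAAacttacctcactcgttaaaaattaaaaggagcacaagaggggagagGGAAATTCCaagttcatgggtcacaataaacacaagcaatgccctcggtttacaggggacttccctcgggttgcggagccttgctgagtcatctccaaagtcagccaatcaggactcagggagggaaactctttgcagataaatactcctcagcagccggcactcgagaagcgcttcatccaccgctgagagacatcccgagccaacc
Cxcl2 promoter: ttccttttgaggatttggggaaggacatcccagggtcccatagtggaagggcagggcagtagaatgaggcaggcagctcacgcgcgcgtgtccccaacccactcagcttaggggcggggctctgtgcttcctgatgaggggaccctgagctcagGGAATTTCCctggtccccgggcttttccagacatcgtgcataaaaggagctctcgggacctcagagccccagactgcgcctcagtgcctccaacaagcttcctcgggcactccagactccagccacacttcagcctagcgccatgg

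In these windows Rsad2 had 1 interferon response core and no kB match, and Isg15 had 3 cores and 1 kB match. Cxcl10 had 1 of each, and Cxcl2 had 1 kB match and no core. The other promoters looked up were mixed. Of genes that rose, Ifit1 and Ifit3 had 3 cores each and Saa3 and Edn1 had 1 each, but Cmpk2 and Irf7 had no core. Of genes that fell, Cxcl1 and Cxcl3 had 1 kB match each and no core, and Tnf had no match to either. Nfkbia, which also fell, had 1 core and 2 kB matches, and Ppp1r15a had 1 core and no kB match. Promoters of the same length were available for 573 of the 708 tested genes. The core was in 9.76% of 27025 genes of the RefSeq table and in 16.6% of the tested genes. It was in 27.2% of genes that rose from T1 to T4, in 10.8% of those that fell and in 12.5% of those that did not pass. The kB site was in 1.45% of all genes and in 4.19% of the tested genes. It was in 7.22% of those that rose, in 5.95% of those that fell and in 0 of 208 that did not pass. Within the first wave the kB site was in 6 of 25 declining genes (24%) and in 6 of 59 that rose again (10.2%), while the core was in 2 of 25 (8.00%) and 18 of 59 (30.5%). The AP-1 site TGANTCA was in 8.97% of all genes, in 9.95% of the tested genes, in 15.6% of those that rose and in 7.03% of those that fell. Among the 50 largest rises, a set taken after the data had been seen, 25 of 43 with a promoter had the core (58.1%), against 5 of 40 among the 50 largest falls (12.5%). A match describes these letters in this window and is not a measured binding site.

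**Figure D4:**
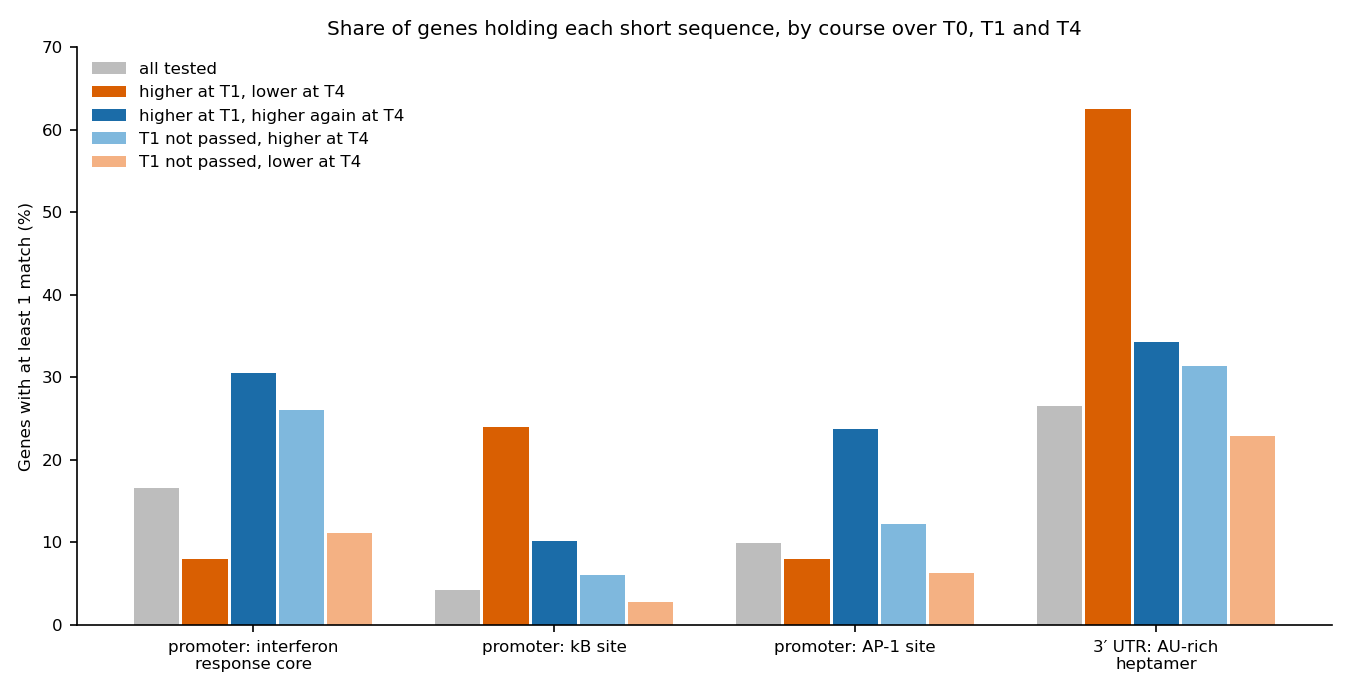
Percentage of genes with at least 1 match to an interferon response core, a kB site or an AP-1 site in the promoter window, and to an AU-rich heptamer in the 3′ UTR, for all tested genes and 4 courses over T0, T1 and T4. The heptamer bar of genes higher at T1 and lower at T4 reaches 62.5% against 26.6% for all tested genes, and the core is most frequent in the 2 courses that rise at T4.

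Genes of the interferon pathway itself rose as well. Of 31 listed signalling factors and nucleic acid sensors 14 were tested, and genes low at T1 could enter through T4. Of the 14 tested 13 rose (92.9% against 30.9% of all tested genes) and Irf9 did not pass, with a median log2 fold change of 2.60. Irf7, the gene of the factor that amplifies interferon production, had been lower at T1 than at T0 and ran from 0 to 124 CPM with a median of 46.8 in the 12 T1 libraries and from 437 to 897 CPM with a median of 499 in the 12 T4 libraries. Its rise was 10.5-fold (log2 change 3.40 ± 0.25 SE, adjusted p = 3.84e-18). Irf8, a factor of the same family, was at 0 to 140.1 CPM (median 62.2) at T1 and 225 to 478 CPM (median 374) at T4 (log2 change 2.60 ± 0.26 SE, adjusted p = 5.75e-13). Stat3 and the kinase gene Jak2 rose by 1.74 and 1.93 on the log2 scale, and the receptor gene Ifnar1 by 0.67. Irf9, the DNA-binding subunit of the interferon-activated factor ISGF3, was at 82.6 to 304 CPM (median 213) at T1 and 143 to 396 CPM (median 209.5) at T4 (log2 change 0.17 ± 0.19 SE, adjusted p = 0.431).

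The cytosolic RNA sensor genes Ddx58, or RIG-I, and Ifih1, or MDA5, both rose. Ddx58 was at 0 to 155 CPM (median 25.1) at T1 and 242 to 836 CPM (median 470.4) at T4 (log2 change 3.26 ± 0.30 SE, adjusted p = 3.70e-14), and Ifih1 was at 62 to 221 CPM (median 148) at T1 and 641 to 833 CPM (median 732) at T4 (log2 change 2.22 ± 0.17 SE, adjusted p = 1.91e-17). Ifih1 had passed as higher at T1 and Ddx58 had not. The DNA-binding HIN-200 proteins are encoded side by side on chromosome 1. Their genes Mnda, Mndal, Ifi204 and Ifi205 rose by 2.76, 2.93, 2.15 and 3.11 on the log2 scale, each without overlap. Daxx, which encodes a histone chaperone, rose from 54.7 to 801 CPM (log2 change 3.93 ± 0.21 SE, adjusted p = 2.49e-24).

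Guanylate-binding proteins and immunity-related GTPases, which attack the vacuoles of intracellular microbes, showed the highest median log2 fold change of the lists, 4.19. Of 15 listed members 9 were tested, and those low at T1 could pass the count filter only through another time. All 9 rose, against 30.9% of all tested genes. In each of the 9 every T4 library was above every T1 library, against 14.8% of all tested genes. Iigp1 had 2 counts in the T1 libraries together and 561 at T4, a ratio of 208 (counting interval 57.4 to 1726 at 95%). Gbp2 was at 0 to 62 CPM (median 10.9) at T1 and 349.7 to 1150.1 CPM (median 631) at T4 (log2 change 4.69 ± 0.31 SE, adjusted p = 4.24e-20). Gbp5 was at 17.5 to 185 CPM (median 75) at T1 and 572 to 1886 CPM (median 895) at T4 (log2 change 3.40 ± 0.23 SE, adjusted p = 8.46e-20), and Gbp7 at 0 to 124 CPM (median 18.5) at T1 and 451 to 874 CPM (median 516) at T4 (log2 change 4.19 ± 0.30 SE, adjusted p = 2.33e-18). Gbp2, Gbp3 and Gbp5 had passed as higher at T1, and the other 6 had not. Irgm1 rose by 2.67 and Gvin1, a very large GTPase gene, by 2.25 on the log2 scale. The near-identical pair Tgtp1 and Tgtp2 gave log2 fold changes of 5.49 and 4.619, and reads could be split between them.

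Genes of MHC class I presentation rose. Of 21 listed genes 9 were tested, and those low at T1 could enter through T4. Of the 9 tested 7 rose (77.8% against 30.9% of all tested genes), Calr fell (11.1% against 31.2%) and H2-D1 did not pass. The median log2 fold change was 1.07. None of the 9 had passed between T0 and T1. Psme2, which encodes a subunit of the proteasome activator PA28, ran from 23.4 to 269 CPM with a median of 88.6 in the 12 T1 libraries and from 392 to 801 CPM with a median of 679 in the 12 T4 libraries (log2 change 2.45 ± 0.19 SE, adjusted p = 7.59e-17). Psmb8, an immunoproteasome subunit gene, rose from 60.9 to 254 CPM (log2 change 2.00 ± 0.28 SE, adjusted p = 7.48e-09), and Tapbp, the gene of tapasin, from 141 to 419 CPM (log2 change 1.59 ± 0.19 SE, adjusted p = 9.19e-11). B2m, the common light chain gene, was at 1051 to 2010.4 CPM (median 1468) at T1 and 1477 to 2702 CPM (median 1924) at T4, with overlap (log2 change 0.44 ± 0.10 SE, adjusted p = 0.000105). The heavy chain gene H2-K1 rose by 0.41 on the log2 scale, and H2-D1 was at 724 to 1241 CPM (median 834) at T1 and 505 to 1597 CPM (median 905) at T4 (log2 change 0.11 ± 0.13 SE, adjusted p = 0.453). The fall of Calr did not pass under median-of-ratios scaling.

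Inducible enzymes and secreted effectors mostly rose from T1 to T4. Of 45 listed genes 17 were tested, and a gene low at T1 could pass the count filter through T4, which favours rises. Of the 17 tested 12 rose (70.6% against 30.9% of all tested genes), 3 fell (17.6% against 31.2%) and 2 did not pass. The median log2 fold change was 1.56, and 11 of the 17 had been higher at T1 than at T0. Irg1, whose product makes itaconate, ran from 327 to 654 CPM with a median of 530.5 in the 12 T1 libraries and from 1504 to 2075 CPM with a median of 1876 in the 12 T4 libraries (log2 change 1.89 ± 0.11 SE, adjusted p = 9.81e-22). Ptgs2, the gene of cyclooxygenase 2, was at 163 to 481 CPM (median 339) at T1 and 699 to 1244 CPM (median 1072) at T4 (log2 change 1.56 ± 0.14 SE, adjusted p = 2.35e-14). Sod2, the mitochondrial superoxide dismutase gene, rose from 292 to 583 CPM (log2 change 1.01 ± 0.18 SE, adjusted p = 2.54e-06). Saa3, an acute-phase gene, was at 0 to 37.9 CPM (median 19.6) at T1 and 489 to 805 CPM (median 680.0) at T4, with no overlap (log2 change 5.10 ± 0.25 SE, adjusted p = 3.97e-22).

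Genes of matrix and vessel factors were in the same list. Mmp13, which encodes a collagenase, was at 77.5 to 208 CPM (median 121) at T1 and 1269.8 to 2009 CPM (median 1449.7) at T4 (log2 change 3.55 ± 0.15 SE, adjusted p = 6.46e-25), and Mmp14 rose from 42.4 to 505 CPM (log2 change 3.33 ± 0.25 SE, adjusted p = 1.16e-17). Edn1, the gene of endothelin 1, had 0, 4 and 385 counts in the T0, T1 and T4 groups. The complement gene C3 rose from 59.2 to 394 CPM (log2 change 2.77 ± 0.29 SE, adjusted p = 2.41e-12). Nampt, of NAD salvage, rose from 61.2 to 327 CPM (log2 change 2.26 ± 0.25 SE, adjusted p = 1.54e-11). Nos2, which encodes the inducible nitric oxide synthase, had 0, 0 and 84 counts at the 3 times and a count in 12 of 12 T4 libraries, so that its T4 level was at least 20.8-fold higher than at T1 against a floor of 3 counts over the T1 group. The 3 that fell were Thbs1 (log2 change -1.26), Ptpre (log2 change -1.02) and the kinase gene Pim1 (log2 change -0.30 ± 0.13 SE, adjusted p = 0.0434), the last of which did not pass under median-of-ratios scaling.

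Of 35 listed surface molecules of activation and Toll-like receptor genes 13 were tested, and those low at T1 could enter through T4. Among the 13 tested 7 rose (53.8% against 30.9% of all tested genes), 1 fell (7.69% against 31.2%) and 5 did not pass. The median log2 fold change was 0.86. Cd40, the receptor for T cell help, ran from 41.5 to 186 CPM with a median of 85.7 in the 12 T1 libraries and from 492 to 799 CPM with a median of 632 in the 12 T4 libraries (log2 change 2.79 ± 0.19 SE, adjusted p = 2.57e-19). Cd69, an early activation marker of leukocytes, was at 0 to 84.2 CPM (median 28.5) at T1 and 323 to 805 CPM (median 559.8) at T4 (log2 change 4.05 ± 0.28 SE, adjusted p = 3.74e-19). Slamf7 had not passed at T1 and was at 0 to 181 CPM (median 79.6) at T1 and 396 to 703 CPM (median 571) at T4 (log2 change 2.83 ± 0.23 SE, adjusted p = 1.31e-16). Icam1, an adhesion molecule gene, rose from 278 to 592 CPM (log2 change 1.02 ± 0.17 SE, adjusted p = 4.19e-07), and Sdc4, a heparan sulfate proteoglycan gene, from 2831 to 5341 CPM (log2 change 0.86 ± 0.12 SE, adjusted p = 7.81e-09). The one that fell was Cd83, a marker of maturing antigen-presenting cells, at 593 to 884 CPM (median 783) at T1 and 191 to 393 CPM (median 315) at T4 with no overlap (log2 change -1.28 ± 0.15 SE, adjusted p = 6.08e-11).

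The receptors for LPS and lipopeptides did not pass or had too few counts for the fit. Cd14, the LPS co-receptor gene, was at 437 to 931 CPM (median 700.0) at T1 and 534 to 938 CPM (median 615) at T4 (log2 change -0.04 ± 0.15 SE, adjusted p = 0.810). Its sign turned positive, at 0.09, under median-of-ratios scaling. Tlr2 was at 62 to 341 CPM (median 186) at T1 and 175 to 307 CPM (median 223) at T4 (log2 change 0.28 ± 0.21 SE, adjusted p = 0.247). Tlr4 had 31, 20 and 11 counts in the T0, T1 and T4 groups (adjusted p = 0.161, n = 12 each, permutation test).

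Genes of the resting macrophage mostly fell. Of 20 tested identity genes and homeostatic receptors 13 fell (65% against 31.2% of all tested genes), 4 rose (20% against 30.9%) and 3 did not pass. Their median log2 fold change was -0.40, and 0 had been higher and 4 lower at T1 than at T0. Summed over the list, the mean level was 15892 CPM at T0, 13199 CPM at T1 and 10195 CPM at T4. Csf1r, which encodes the receptor for the macrophage growth factor M-CSF, ran from 673 to 1426 CPM with a median of 990.2 in the 12 T1 libraries and from 316 to 648 CPM with a median of 502 in the 12 T4 libraries. It fell 2.04-fold with no overlap (log2 change -1.03 ± 0.12 SE, adjusted p = 4.24e-11). Lrp1, an endocytic receptor gene, was at 363 to 1005 CPM (median 616) at T1 and 84.3 to 233 CPM (median 153) at T4, a fall of 4.36-fold (log2 change -2.12 ± 0.17 SE, adjusted p = 5.05e-17). Nrp1, the neuropilin gene, was at 234 to 764 CPM (median 372) at T1 and 13.7 to 272 CPM (median 106) at T4 (log2 change -1.89 ± 0.22 SE, adjusted p = 9.50e-11). Ccr2, the monocyte receptor for CCL2, fell to near the limit of counting, at 70.1 to 337 CPM (median 194) at T1 and 0 to 58.7 CPM (median 29.9) at T4 (log2 change -2.84 ± 0.33 SE, adjusted p = 7.31e-11).

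The transcription factor gene Maf had fallen at T1 and then rose from 246 to 560.0 CPM (log2 change 1.24 ± 0.16 SE, adjusted p = 1.23e-09). Itgb5 fell by 3.44-fold (log2 change -1.78 ± 0.24 SE, adjusted p = 5.29e-09) and the lipid receptor gene Trem2 from 316 to 189.7 CPM (log2 change -0.76 ± 0.18 SE, adjusted p = 0.000193). Sirpa, which encodes the receptor for the signal CD47, was among the 12 largest falls at or above the median level, from 851 to 321 CPM (log2 change -1.43 ± 0.17 SE, adjusted p = 1.86e-10). The scavenger receptor gene Msr1, the Fc receptor chain gene Fcer1g and Axl rose, by 1.52, 1.03 and 0.86 on the log2 scale. Emr1, which encodes F4/80, Itgam and C1qb did not pass. Fewer cells of a type and less RNA per cell cannot be told apart in these bulk libraries.

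Lysosomal genes fell too. Of 23 tested 14 fell (60.9% against 31.2% of all tested genes), 2 rose (8.70% against 30.9%) and 7 did not pass. The median log2 fold change was -0.39. Ctsd, the cathepsin D gene, was at 1157 to 1746 CPM (median 1263) at T1 and 514 to 984 CPM (median 805) at T4 with no overlap (log2 change -0.74 ± 0.10 SE, adjusted p = 3.64e-09). Lipa, the gene of lysosomal acid lipase, fell from 445 to 190.2 CPM (log2 change -1.19 ± 0.16 SE, adjusted p = 2.55e-09), and Ctsl, of cathepsin L, from 809 to 467 CPM (log2 change -0.85 ± 0.14 SE, adjusted p = 3.90e-07). Ctsc, which encodes the cathepsin that activates serine proteases, rose from 217 to 866 CPM with no overlap (log2 change 1.68 ± 0.20 SE, adjusted p = 1e-10). The lipid droplet gene Plin2 and the cholesterol-esterifying enzyme gene Soat1, the only 2 of 32 listed lipid genes with enough counts, fell from 381 to 191 CPM (log2 change -1.07 ± 0.17 SE, adjusted p = 3.80e-07) and from 155 to 34.4 CPM (log2 change -1.70 ± 0.32 SE, adjusted p = 6.17e-06).

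Of the ferritin genes 1 fell and 1 did not pass. Ftl1, the ferritin light chain gene, was at 2575 to 4813 CPM (median 3799) at T1 and 1400.1 to 2216 CPM (median 1838) at T4 and fell 2.11-fold with no overlap (log2 change -1.08 ± 0.09 SE, adjusted p = 1.64e-15). Fth1, the heavy chain gene, was at 4431 to 6768 CPM (median 5545) at T1 and 5216 to 6876 CPM (median 5877) at T4 (log2 change 0.11 ± 0.08 SE, adjusted p = 0.182) and did not pass here, though it did as a rise of 0.25 under median-of-ratios scaling. Within the same list of 11 tested genes 4 rose and 4 fell (36.4% each), near the shares of 30.9% and 31.2% over all tested genes. The metallothionein gene Mt2 was at 0 to 325 CPM (median 46.7) at T1 and 486 to 1150.1 CPM (median 583) at T4 (log2 change 3.11 ± 0.29 SE, adjusted p = 5.07e-14).

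Of 72 tested ribosomal protein genes 23 were lower (31.9%, against 31.2% of all tested genes), 0 higher and 49 did not pass, with a median log2 fold change of -0.27 against -0.13 for all genes. Median-of-ratios scaling gave 11 lower and 1 higher, so the number depends on the scaling. Of 17 translation factors 7 fell (41.2% against 31.2% of all tested genes) and 2 rose (11.8% against 30.9%). Eef2, the elongation factor gene, fell from 656 to 401 CPM (log2 change -0.79 ± 0.15 SE, adjusted p = 4.72e-06) and Eif4g2 rose from 121 to 239 CPM (log2 change 1.00 ± 0.24 SE, adjusted p = 0.000288). Of 53 listed respiratory chain genes only 5 were tested and 0 passed, against 62.1% of all tested genes. Of 6 glycolysis genes Hk2, the hexokinase gene, rose (log2 change 1.04 ± 0.29 SE, adjusted p = 0.00165), Aldoa (log2 change -0.75) and Pkm (log2 change -0.33) fell and 3 did not pass. These shares, 16.7% higher and 33.3% lower, compare with 30.9% and 31.2% of all tested genes. Of 9 chaperone genes 3 fell (33.3% against 31.2% of all tested genes), 2 rose (22.2% against 30.9%) and 4 did not pass. The mitochondrial Hspa9 fell most, from 285 to 117 CPM (log2 change -1.48 ± 0.26 SE, adjusted p = 2.20e-06).

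Of 28 tested actin and migration genes 8 were higher (28.6%) and 6 lower (21.4%), below the shares of 30.9% and 31.2% over all tested genes, with a median log2 fold change of 0.01. Actb, the beta-actin gene that is often used as a constant reference, was at 7736 to 10027 CPM (median 9074) at T1 and 13341 to 17143 CPM (median 15600.3) at T4. Every T4 library was above every T1 library (log2 change 0.76 ± 0.07 SE, adjusted p = 1.69e-14). Myh9, the non-muscle myosin gene, fell from 393 to 201 CPM (log2 change -0.94 ± 0.18 SE, adjusted p = 9.47e-06), while Tpm4, a tropomyosin gene, rose from 115 to 267 CPM (log2 change 1.395 ± 0.25 SE, adjusted p = 1.85e-06). Among 4 cell cycle genes Ccnd2, which encodes cyclin D2, stood out at 0 to 210.2 CPM (median 45.3) at T1 and 1183 to 2293 CPM (median 1835) at T4, a 30.8-fold rise (log2 change 4.95 ± 0.22 SE, adjusted p = 6.10e-28). The cell cycle inhibitor gene Cdkn1a, or p21, rose from 613 to 1199.6 CPM (log2 change 0.99 ± 0.12 SE, adjusted p = 5.14e-10). Of long noncoding RNAs, Malat1 fell from 2204 to 1190.5 CPM (log2 change -0.85 ± 0.14 SE, adjusted p = 8.57e-07) and Neat1 from 139 to 54.1 CPM (log2 change -1.02 ± 0.29 SE, adjusted p = 0.00228), while AW112010 rose from 7 counts at T1 to 660 at T4.

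**Figure D5:**
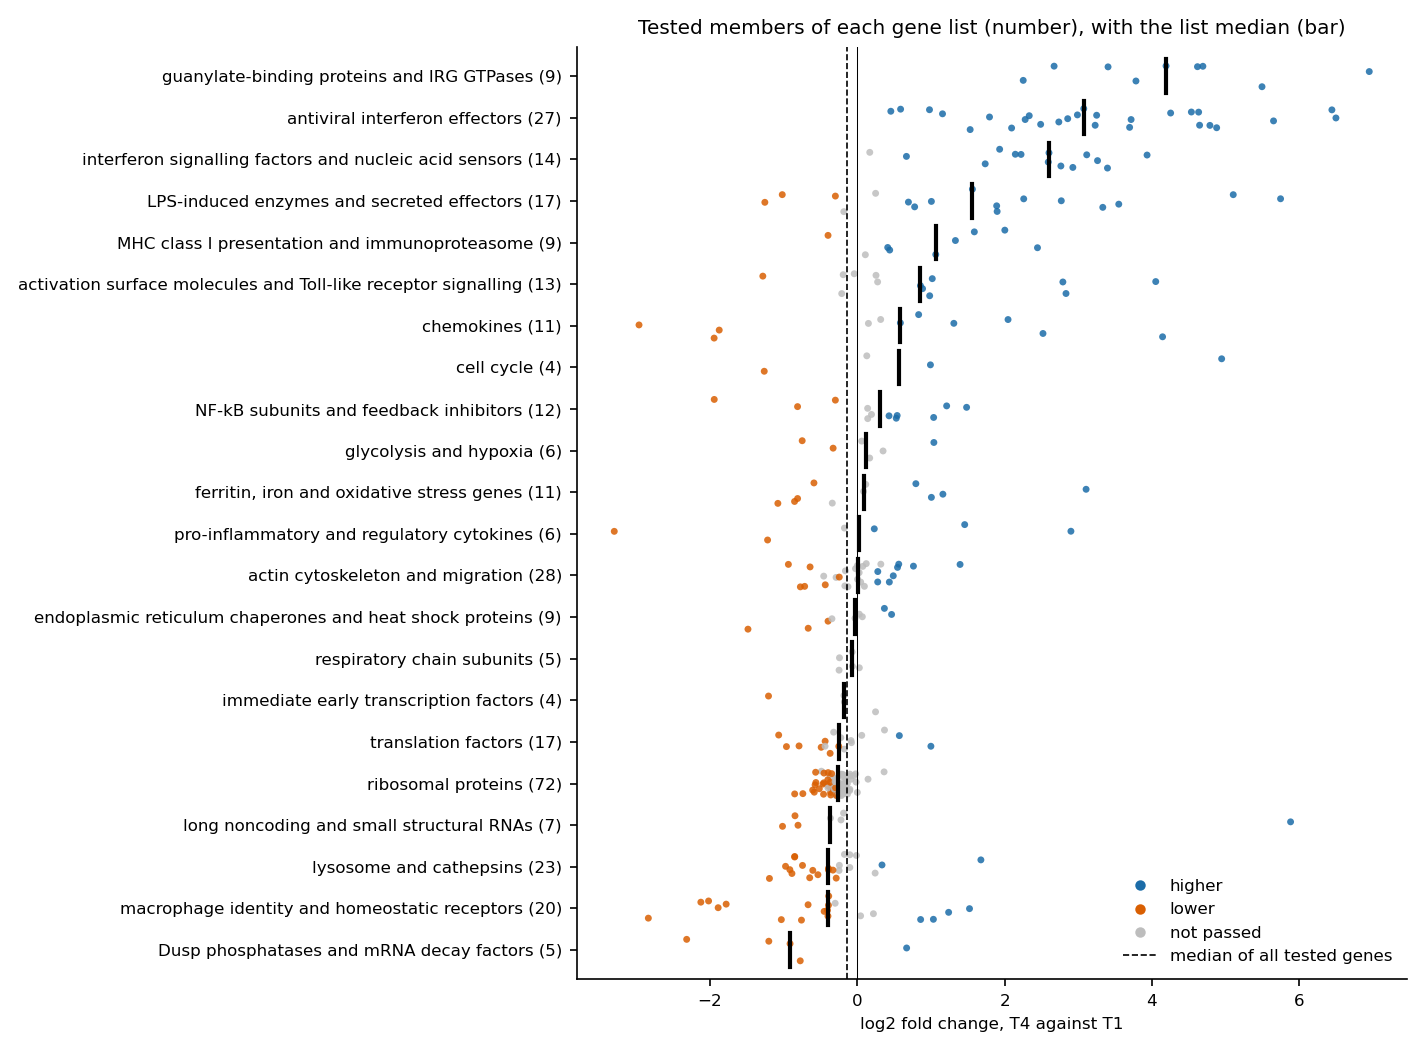
log2 fold change of T4 against T1 (horizontal) for the tested members of 22 gene lists with at least 3 of them, as points coloured by call, with the list median as a bar and the median of all 708 tested genes as a dashed line. The 3 interferon lists lie wholly above 0, and the macrophage identity and lysosome lists lie mostly below. The ribosomal list has its median at -0.27, against -0.13 for all tested genes, and its share called lower (31.9%) is near that of all tested genes (31.2%).

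Markers of B cells, dendritic cells, fibroblasts, erythroid cells and mast cells were low throughout. Sums for neutrophil markers, and for T and NK cell markers at T1, reached higher values. Summed levels of 8 B cell markers were 0 to 82.6 CPM at T1 and 0 to 84.3 CPM at T4, those of 12 dendritic cell markers 31 to 181 CPM and 42.2 to 272 CPM, and those of 12 fibroblast markers 0 to 62 CPM and 0 to 120.0 CPM. The 12 erythroid and mast cell markers had 0 counts. Of 11 T and NK cell markers 8 were at 0 at T1 and 8 at T4, and the sum of 152 to 397 CPM at T1 and 11.6 to 80.0 CPM at T4 was carried by Il7r, the interleukin 7 receptor gene, which fell (log2 change -2.65 ± 0.27 SE, adjusted p = 8.70e-13). Of 11 neutrophil markers 4 were at 0 at T1 and 5 at T4, the sum was 331 to 560.4 CPM and 117 to 562 CPM, and S100a9, the only one tested, fell (log2 change -0.90 ± 0.24 SE, adjusted p = 0.00100). The part of such cells in the results was not tested.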

How the data were processed

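RNA of macrophage cultures was measured by 3′ digital gene expression (SCRB-Seq, per the labels' protocols). The deposited table holds raw counts per gene symbol and library, which the authors made from reads linked to BWA and mm10 in the submitters' processing notes. Counter, annotation, strand setting and any molecular identifiers: not given in the sources used here. Counts of 36 control libraries were fitted together in R 4.3.3 with edgeR 4.0.16 (quasi-likelihood test, TMM, filterByExpr with a minimum count of 10), and T4 was tested against T1, two-sided, with Benjamini-Hochberg adjustment and a threshold of 0.05. SE is the absolute log2 change over the square root of F. Library measures and 13 untested genes had two-sided permutation tests, the latter and the 3′ UTR counts being added after the data were seen. Intervals cover counting error only. The fit was tested on simulated data. Gene positions came from RefSeq (GRCm38) and 3′ UTRs from GENCODE M21. Named genes are the 12 largest rises and falls at or above the median level, up to 8 members of each of 29 lists with the smallest adjusted p, small groups of called members and 50 fixed genes, some given only within counts and some not reported here. Irf2bp2, Mcl1 and Nlrp3 were added after their values were seen. The members and lists were chosen with earlier results of these data known. No library pair was identical. Other settings tried were DESeq2 1.42.0, median-of-ratios scaling, no filter, the 24 libraries alone, a replicate block, no structural RNAs, and each library left out.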

Additional observations from a re-analysis of the deposited data

How the results depend on the processing

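Of 148 named genes called between T4 and T1, 140 kept their direction and call under every alternative in which they could be tested and 0 reversed. For 12 of the 148 at least 1 alternative gave no value, mostly the 24 libraries alone, where fewer genes passed the count filter. The other 8 were Calr, Eif5a, Il1b, Nfkbia, Nlrp3, Pim1, Pkm and Tnip1. Median-of-ratios scaling and DESeq2 ended the calls of Calr, Nfkbia, Pim1 and Pkm, and leaving out single libraries ended those of Calr (12 of 24), Pim1 (16), Pkm (7), Eif5a (T1 replicate 8, T4 replicates 10 and 11, log2 fold change from 0.49 to 0.53) and Tnip1 (T1 replicate 8, T4 replicates 10 and 12, from 0.46 to 0.50). With each library left out in turn, 216 to 246 genes were higher and 202 to 232 lower. Without the filter on low counts 12496 genes were tested, of which 834 were higher and 911 lower at T4 than at T1, 263 higher at T1 than at T0, and 1011 higher and 1183 lower at T4 than at T0. The number lower at T1 than at T0 was 35 with DESeq2 and 27 with median-of-ratios scaling; DESeq2 gave 244 higher and 171 lower at T4 than at T1. The log2 fold change of Cd14 changed sign with DESeq2 (0.092), median-of-ratios scaling (0.091), no filter (0.10) and some left-out libraries (-0.10 to 0.023), and that of C1qb with the 24 libraries alone (-0.0081). Relative to all genes, list medians with each library left out ran from 3.10 to 3.35 for antiviral genes, 2.63 to 2.83 for interferon signalling, 4.14 to 4.65 for guanylate-binding proteins and 0.86 to 1.247 for MHC class I. With the 24 libraries alone the actin median was 0.069 and the cell cycle median 3.01, and without structural RNAs that of noncoding RNAs was -0.69, in lists with fewer genes tested. The T4 less T1 difference ran from 14110.5 to 21453 in total counts and from -163.9 to 29.3 in genes with a count. On the gene's own strand the interferon core was in 15% of promoters of genes that rose and 5.95% of those that fell. The kB site was there in 2.22% of those that rose and 3.24% of those that fell, the reverse of its order on either strand. The cause of these changes was not tested, except that tested sets differ by construction. Deviations of same-numbered T1 and T4 libraries correlated at r from -0.0026 to 0.289, with a median of 0.118 against -0.010 for other numbers. They were over 0.1 in 8 of 12 pairs, and 4 of 12 correlated best with their own number, a hint from the data that falls short of every pair, so the numbers were not used to pair libraries. With a replicate block 227 genes were higher and 235 lower. No library had under 30000 counts, so that alternative equals the reported fit. At these depths only 708 of 23481 gene symbols could be tested.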

Other observations

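Several genes outside the lists had large differences between T4 and T1, chosen here after their values were seen. Pydc3, which encodes a pyrin domain protein, had 4 counts in the T1 libraries and 292 in the T4 libraries. Fgl2, a fibrinogen-like gene, was at 0 to 46.5 CPM (median 14.7) at T1 and 253 to 609 CPM (median 512) at T4 (log2 change 4.79 ± 0.31 SE, adjusted p = 2.73e-20). AA467197 rose by 4.06 on the log2 scale, Pnp, of purine salvage, by 2.32, and Notch2, a receptor gene, by 1.89. The tyrosine kinase gene Lyn rose from 93.9 to 268 CPM (log2 change 1.35 ± 0.30 SE, adjusted p = 8.64e-05).

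Among falls outside the lists, Irf2bp2, which encodes a repressor that binds IRF2, had no change by the test between T0 and T1 and was at 25.9 to 350.3 CPM (median 144) at T1 and 0 to 71.3 CPM (median 4.29) at T4 (log2 change -3.49 ± 0.41 SE, adjusted p = 6.63e-11). The amino acid transporter gene Slc43a2 and the transcription factor gene Mef2a fell, with log2 fold changes of -2.69 and -2.09. Rgs2, a regulator of G protein signalling, had been lower at T1 and fell again (log2 change -1.99 ± 0.32 SE, adjusted p = 3.37e-07). Igf1, the growth factor gene, fell from 365 to 144 CPM (log2 change -1.06 ± 0.20 SE, adjusted p = 9.32e-06). The membrane protease genes Adam10 and Adam8 fell, with log2 fold changes of -1.54 and -1.21.

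Of the 56 genes that were lower at T1 than at T0, 8 were higher again at T4. Irf7, Maf and Trim25 were among them, and only 2 of the 8 passed as higher at T4 than at T0.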
